A study of Mus musculus with 10 samples.

Results

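Mitosis and kinetochore genes were read on 10 expression arrays of *Max*-null ESCs, and 41 of the 42 genes chosen could be read. The genes were picked by function, but with earlier results of these data known, so their shares beside those of all genes are descriptions. They cover the aurora kinases and their partners, the kinases and cyclins of mitotic entry, and the spindle checkpoint and anaphase genes. The kinetochore and the motors and chromosome proteins of the dividing cell complete them. A gene was taken from probe sets whose annotation gave its symbol alone, and its value from the brightest of them (mean over the 10 arrays). The 41 genes held 92 probe sets, of 18193 genes and 45037 probe sets in all. *Sgo1* and *Sgo2a* were found under their current symbols, and *Ccnb1* was not analysed here.

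*Max*-null ESCs are a mouse embryonic stem cell line (129SV, male) whose endogenous *Max* gene is homozygously disrupted and which expresses MAX from a tetracycline-off cDNA in the ROSA26 locus. All 10 arrays are of these cells, so the untreated controls carry the disruption and the cDNA too. Doxycycline (Dox, 1 µg/ml) switches the cDNA off. By the study's methods the 8 older arrays are of cells in leukaemia inhibitory factor (LIF) and serum (LIF+serum); their sample titles name no medium, and their growth protocol also mentions a 2i condition. Of these, a first set was taken to hold untreated cells and Dox 1, 2, 3 and 4 d. A second set was taken to hold untreated cells and Dox 6 and 8 d. The sample titles mark 1 untreated array as ver2 but tie no Dox array to it, so the sets follow the order of the samples. In 2i, a pair of inhibitors of MEK and GSK3β, 1 array held cells given 2i with Dox for 6 d and 1 held cells given 2i for 6 d without Dox. There was 1 array for each Dox time. The sources used here do not tie the untreated arrays to separate cultures, so every p-value below measures a spread between arrays that may be technical.

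Mitosis begins when CDK1, bound to A- and B-type cyclins, is switched on together with polo-like and aurora kinases. Kinetochores assemble on centromeric chromatin and hold microtubules through the NDC80 complex, and while any kinetochore is unattached the spindle checkpoint keeps CDC20 from activating the anaphase-promoting complex (APC/C). Embryonic stem cells divide fast and transcribe these genes strongly. AURKC is the aurora kinase of germ cells and takes the place of AURKB in the chromosomal passenger complex of meiotic cells.

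Promoters are shown for 4 genes whose values differed in kind: *Aurkc*, the aurora kinase gene that rose by 4 d, *Bub1*, which rose over the whole course, *Cenpf*, a kinetochore gene that rose by 4 d, and *Ccnb2*, a cyclin gene that passed no test. Capitals mark a CHR element (TTTGAA or TTCGAA, or TTCAAA on the other strand) or a CCAAT box (CCAAT, or ATTGG on the other strand), both known from promoters of mitotic genes. Each run covers 250 bases before to 50 after the start in RefSeq on GRCm38.p6, written 5′ to 3′ along the gene.
Aurkc, chr7:6995135-6995434, plus strand: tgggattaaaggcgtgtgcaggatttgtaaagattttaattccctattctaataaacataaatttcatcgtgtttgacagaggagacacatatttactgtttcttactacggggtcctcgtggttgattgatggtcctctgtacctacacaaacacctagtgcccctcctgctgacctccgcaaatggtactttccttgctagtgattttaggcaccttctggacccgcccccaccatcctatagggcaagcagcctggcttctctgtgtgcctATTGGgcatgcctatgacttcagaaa
Bub1, chr2:127831810-127832109, minus strand: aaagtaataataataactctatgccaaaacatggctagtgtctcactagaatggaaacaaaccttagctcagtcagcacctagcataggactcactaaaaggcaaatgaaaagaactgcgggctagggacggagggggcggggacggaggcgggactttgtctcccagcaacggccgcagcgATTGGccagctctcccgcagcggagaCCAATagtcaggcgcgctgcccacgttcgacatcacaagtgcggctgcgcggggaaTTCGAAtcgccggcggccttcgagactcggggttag
Cenpf, chr1:189688037-189688336, minus strand: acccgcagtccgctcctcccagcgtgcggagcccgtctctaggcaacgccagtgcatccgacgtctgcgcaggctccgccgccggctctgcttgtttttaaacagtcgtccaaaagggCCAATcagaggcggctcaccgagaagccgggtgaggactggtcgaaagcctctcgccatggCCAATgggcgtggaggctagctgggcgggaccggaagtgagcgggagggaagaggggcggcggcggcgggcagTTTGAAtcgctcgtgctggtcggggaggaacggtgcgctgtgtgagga
Ccnb2, chr9:70421505-70421804, minus strand: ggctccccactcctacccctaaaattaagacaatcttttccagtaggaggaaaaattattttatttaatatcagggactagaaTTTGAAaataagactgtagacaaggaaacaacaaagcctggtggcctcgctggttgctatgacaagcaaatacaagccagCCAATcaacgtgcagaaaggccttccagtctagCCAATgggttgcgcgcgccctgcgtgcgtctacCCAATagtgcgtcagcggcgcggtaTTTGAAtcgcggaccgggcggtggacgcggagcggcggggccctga
The 3 promoters of *Bub1*, *Cenpf* and *Ccnb2* held a CHR element within 15 bases downstream of the start and at least 2 CCAAT boxes before it, whereas that of *Aurkc* held 1 CCAAT box, 25 bases downstream of the start, and no CHR element. RefSeq promoters were found for 34 of the 41 genes. A gene was counted for a motif when any of its listed promoters held it. A CHR element lay in 67.6% of these 34 (23 genes), against 21.7% of 27025 genes with promoters of the same length. A CCAAT box lay in 79.4% (27 genes), against 41.1% of those 27025 genes. The E-box CACGTG, which reads the same on both strands and is bound by MAX dimers with MYC or MGA, lay in 11.8%, against 8.09% of the 27025 genes. The 4 genes with an E-box were *Espl1*, *Knstrn*, *Sgo1* and *Ttk*. Matches of different motifs may share bases, and a match is a description of sequence only.

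The deposited values are log2 expression values after robust multi-array analysis (RMA), so a difference of 1 is a doubling. Array medians lay between 5.26 and 5.33 in LIF+serum, and were 5.16 for 2i Dox and 5.14 for 2i untreated cells. Embryonic stem cell markers were at 6 or more on all arrays for 7 of 7 genes, while fibroblast markers reached 6 for at most 2 of 5 and primitive endoderm markers for at most 1 of 5 on any array. Trophectoderm markers reached 6 for 2 or 3 of 5 genes in untreated cells and at 1 to 4 d, and for 4 of 5 at 6 and 8 d. The log2 of their summed level was 9.14 in untreated cells and 8.35 to 8.89 at 1 to 4 d. It was 8.78 in untreated cells of the second set and 9.66 and 10.91 at 6 and 8 d. In 2i it was 9.39 with Dox and 10.87 without. *Cdx2* stayed at 5.25 or below on all arrays. The other 4 were higher at 8 d than in untreated cells of the second set: *Eomes* (7.61 against 6.12), *Krt7* (7.63 against 5.10), *Krt8* (9.39 against 7.42) and *Krt18* (9.69 against 7.05). The log2 of the summed level of 5 germ cell markers was 8.78 in untreated cells and 11.34, 10.25, 12.52 and 13.38 at 1, 2, 3 and 4 d, 10.70 in untreated cells of the second set and 14.35 and 14.30 at 6 and 8 d, and 13.08 in 2i Dox against 11.05 in 2i untreated cells. The signal of the 3′ over the 5′ probe set of actin, a measure of RNA integrity, was 0.41 (log2) in untreated cells and 0.52 to 0.56 at 1 to 4 d, 0.88 in untreated cells of the second set and 1.46 and 1.22 at 6 and 8 d, and 0.76 in 2i Dox against 0.78 in 2i untreated cells. For *Gapdh* the same measure was -0.03 in untreated cells and -0.09 to -0.01 at 1 to 4 d. It was 0.12 in untreated cells of the second set and 0.09 and 0.05 at 6 and 8 d. In 2i it was -0.09 with Dox and -0.12 without. The part of these differences in the results below was not tested. The *Max* probe set does not check the labels, because no source used here places it in the disrupted gene or in the cDNA.

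The median mitotic gene stayed near its untreated level in LIF+serum. The median ratio to the untreated array of the same set over the 41 genes was 1.06, 0.973, 1.09 and 1.04 at 1, 2, 3 and 4 d and 0.862 and 0.942 at 6 and 8 d, while over all 18193 genes it lay between 0.933 and 0.974. The ratios of single genes ran from 0.58 (*Aurkb*) to 5.11 (*Cenpe*) at 4 d and from 0.349 (*Aurkb*) to 2.43 (*Bub1*) at 6 d. In whole cultures, fewer cells that express a gene and less RNA in each cell cannot be told apart.

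At 1.5-fold, the early arrays held more mitotic genes above than below their untreated array. At 1 d, 12 of 41 genes were at least 1.5-fold higher (29.3%, against 8.85% of all genes) and 1 was lower, *Espl1* (6.85% of all genes were). The counts higher were 10 at 2 d (10.1% of all genes), 15 at 3 d (13.1%) and 14 at 4 d (14.6%), and the counts lower were 0 at 2 d (10.1%), 0 at 3 d (12.6%) and 1 at 4 d (14.6%), *Aurkb*. At 6 d, 5 genes were higher (13.3% of all genes) and 8 lower (15.3%), and at 8 d 3 were higher (14.1%) and 4 lower (14.0%). With 1 array per time these ratios have no replicate check. They also turn on the untreated array: against the untreated array of the other set, 4 genes were higher at 1 d (7.5% of all genes), 5 at 2 d (6.84%), 7 at 3 d (9.83%) and 11 at 4 d (11.5%), and 11 were higher (20.4%) and 13 lower (25.6%) at 6 d. Both untreated arrays differed from each other by 1.5-fold or more in 13 of 41 genes (31.7%, against 27.6% of all genes), with *Aurkc*, *Bub1*, *Cenpe*, *Cenpf*, *Cenpk*, *Kif11*, *Ndc80*, *Sgo2a*, *Spc25* and *Top2a* higher in the second and *Aurka*, *Kif20a* and *Pttg1* lower.

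**Figure D1:**
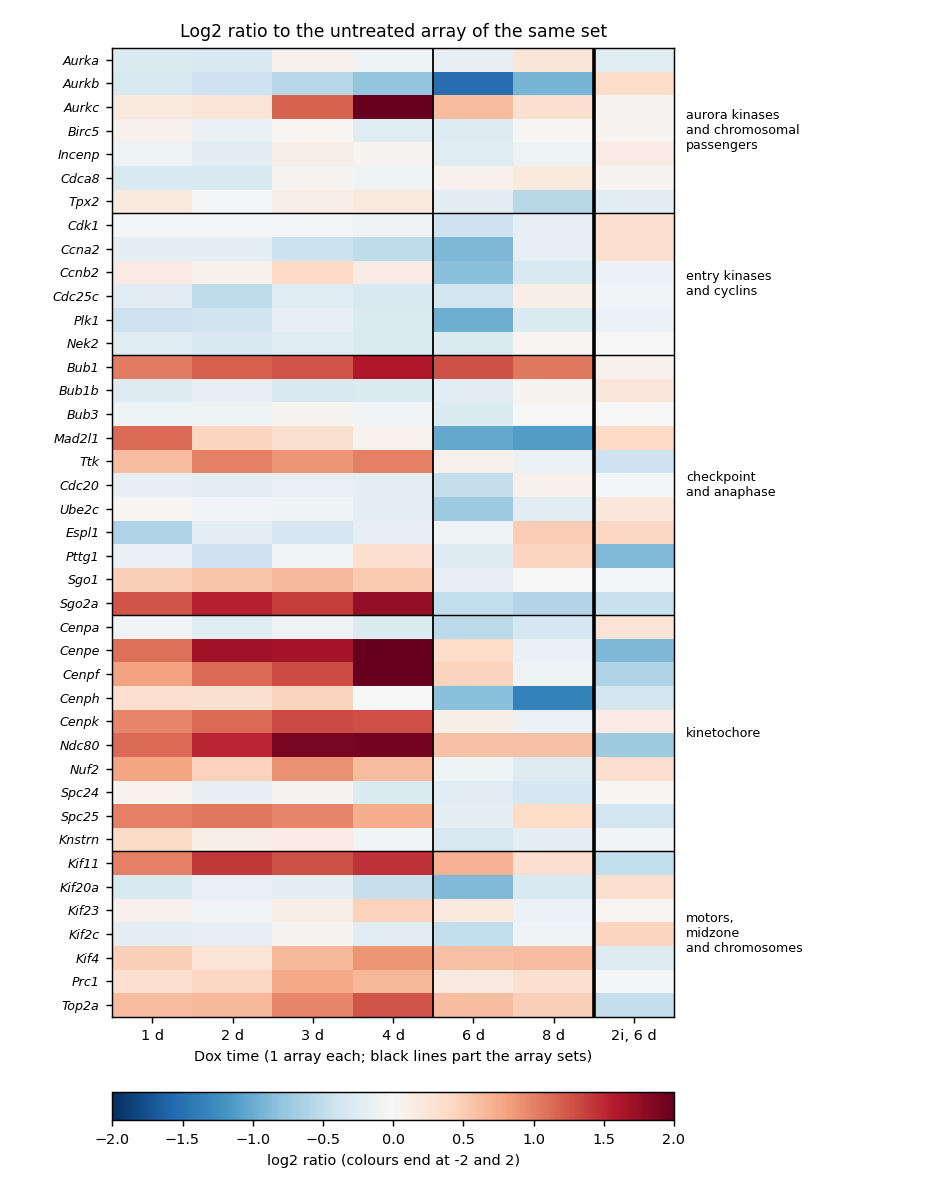
Log2 ratio of each of 41 mitotic genes (rows, grouped by role) to the untreated array of the same set, at each Dox time in LIF+serum and at 6 d in 2i (columns, 1 array each). Red is higher and blue lower than untreated cells. The reddest rows by 4 d are *Cenpe*, *Aurkc*, *Cenpf*, *Ndc80*, *Sgo2a* and *Bub1*, and the bluest cell is *Aurkb* at 6 d (0.349-fold).

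A slope per day of Dox, fitted by limma to the 8 LIF+serum arrays for every probe set, with a term for the array set, passed an adjusted p of 0.05 for 2 of 41 genes (4.88%), against 11.1% of all genes. *Bub1* rose (5.75% of all genes did) and *Aurkb* fell (5.33% did). A further 5 genes had an unadjusted p under 0.05 only, *Kif4*, *Ndc80* and *Top2a* with positive and *Cenph* and *Mad2l1* with negative slopes, which made 7 of 41 (17.1%), against 28.1% of all genes. The median slope was -0.01 per day for the 41 genes and -0.01 for all genes.

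The 3 aurora kinase genes took different courses. *Aurkb*, which encodes the kinase of the mitotic chromosomal passenger complex, was at 8.80 (log2) in untreated cells and 8.50, 8.38, 8.23 and 8.01 at 1, 2, 3 and 4 d, 8.77 in untreated cells of the second set and 7.25 and 7.84 at 6 and 8 d, and 9.02 in 2i Dox against 8.65 in 2i untreated cells. Every Dox array in LIF+serum lay below both untreated arrays, and the 2i Dox array lay above its own. *Aurkb* fell by 0.16 per day (SE 0.04, adjusted p = 0.0368 by limma), and its ratio was 0.58 at 4 d, 0.349 at 6 d, 0.525 at 8 d and 1.29 in 2i. A dimmer probe set of *Aurkb*, of a design (suffix _x) that can also bind transcripts of other genes, fell by 0.17 per day (adjusted p = 0.0433 by limma). Binding of other transcripts was not checked for the brightest probe set (suffix _s) either. The call was lost when the untreated array of either set or the 1, 2, 3 or 4 d array was left out (adjusted p between 0.0537 and 0.593 by limma), with slopes from -0.16 to -0.10.

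*Aurkc* was at 6.40 (log2) in untreated cells and 6.59, 6.66, 7.58 and 8.63 at 1, 2, 3 and 4 d, 7.56 in untreated cells of the second set and 8.17 and 7.88 at 6 and 8 d, and 8.37 in 2i Dox against 8.31 in 2i untreated cells. The 1 and 2 d arrays lay close to their untreated array and the 4 d array highest of all 10, but the untreated array of the second set lay above those of 1 and 2 d. *Aurkc* rose within the first set, by 0.54 per day (SE 0.09, adjusted p = 0.0267 by limma), with a ratio of 4.69 at 4 d. Its ratio was 1.52 at 6 d, 1.25 at 8 d and 1.04 in 2i. Its slope over all 8 arrays was 0.16 (SE 0.08, adjusted p = 0.238 by limma).

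*Aurka*, whose kinase acts at the spindle poles, was at 10.92 (log2) in untreated cells and 10.65, 10.63, 11.00 and 10.83 at 1, 2, 3 and 4 d, 9.78 in untreated cells of the second set and 9.62 and 10.02 at 6 and 8 d, and 10.75 in 2i Dox against 10.99 in 2i untreated cells. The Dox arrays lay on both sides of their untreated array, and the second set as a whole lay below the first. Its ratios ran from 0.815 to 1.18 in LIF+serum, and its slope was 0.02 per day (SE 0.03, adjusted p = 0.793 by limma). The partners of the aurora kinases passed no test in their brightest probe sets. Over the 6 Dox times in LIF+serum, ratios ran from 0.833 to 1.06 for *Birc5* (survivin), from 0.842 to 1.08 for *Incenp*, the scaffold, and from 0.81 to 1.15 for *Cdca8* (borealin), which complete the passenger complex. *Tpx2*, which activates AURKA on the spindle, had ratios of 1.14, 0.973, 1.09 and 1.15 at 1 to 4 d and 0.867 and 0.679 at 6 and 8 d.

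**Figure D2:**
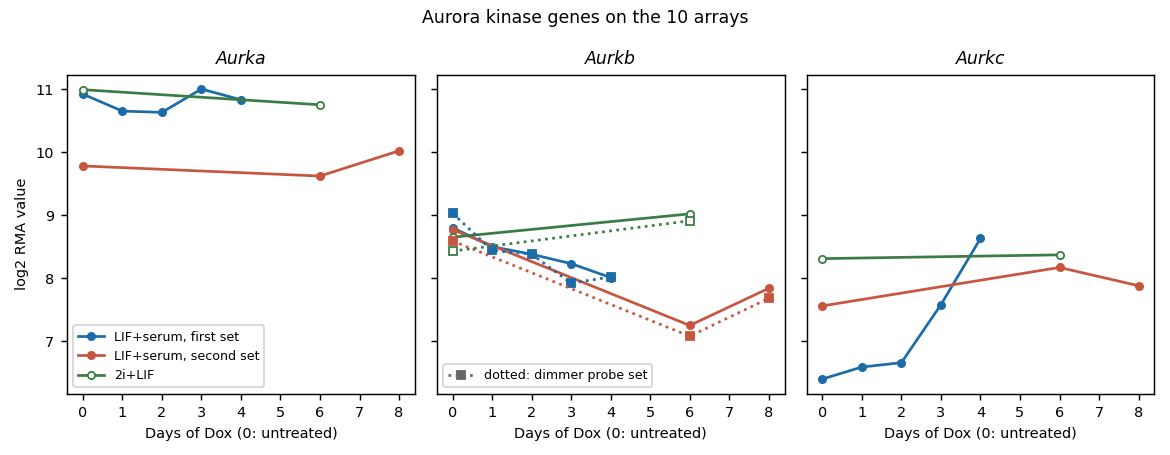
Log2 RMA values of *Aurka*, *Aurkb* and *Aurkc* against days of Dox (0 is untreated), with 1 point per array joined within an array set, and dotted lines for the dimmer probe set of *Aurkb*. *Aurkb* lies below its untreated arrays at all 6 Dox times in LIF+serum, *Aurkc* is highest at 4 d (8.63), and levels of different genes are not comparable because they come from different probes.

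No gene of mitotic entry passed a test in the main fits, though *Ccna2* had a Dox slope when the 8 d array was left out. *Cdk1*, the kinase that drives entry, had ratios between 0.936 and 0.989 at 1 to 4 d, 0.746 at 6 d and 0.89 at 8 d. The cyclin genes *Ccna2* and *Ccnb2*, whose proteins bind it, were at 0.537 and 0.559 of untreated at 6 d and 0.886 and 0.81 at 8 d. *Plk1*, the polo-like kinase gene, was at 0.506 at 6 d and 0.822 at 8 d. These 3 genes passed 1.5-fold at 6 d and not at 8 d, and *Cdk1* passed it at neither. *Cdc25c*, whose phosphatase activates CDK1, had ratios of 0.7 to 0.853 at 1 to 4 d and 1.1 at 8 d. *Nek2*, a kinase gene of centrosome separation, ran from 0.808 to 0.846 at 1 to 4 d and was at 1.03 at 8 d. Over these 6 genes the median ratio was 0.817 at 4 d, 0.645 at 6 d, 0.888 at 8 d, and 0.98 in 2i.

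Among the 11 checkpoint and anaphase genes, *Bub1* rose over the whole course and the others passed no test. *Bub1*, a kinase gene of the checkpoint and of centromeric chromatin, was at 9.40 (log2) in untreated cells and 10.45, 10.60, 10.66 and 11.00 at 1, 2, 3 and 4 d, 10.23 in untreated cells of the second set and 11.51 and 11.27 at 6 and 8 d, and 9.99 in 2i Dox against 9.90 in 2i untreated cells. All 6 Dox arrays in LIF+serum lay above both untreated arrays, and the 2i arrays were close to each other. *Bub1* rose by 0.19 per day (SE 0.05, adjusted p = 0.0335 by limma). Its ratio was 2.06 at 1 d, 3.02 at 4 d, 2.43 at 6 d, 2.06 at 8 d and 1.06 in 2i. The call was lost without the 3 d, 4 d or 6 d array or the untreated array of the second set (adjusted p between 0.0624 and 0.287 by limma), with slopes from 0.18 to 0.26. *Bub1b* (BUBR1) and *Bub3*, which act beside BUB1 in the checkpoint, had ratios of 0.81 to 1.04 and 0.832 to 1.04 over the 6 times.

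*Mad2l1*, whose protein inhibits CDC20, was at 10.54 (log2) in untreated cells and 11.68, 10.97, 10.84 and 10.61 at 1, 2, 3 and 4 d, 10.78 in untreated cells of the second set and 9.76 and 9.67 at 6 and 8 d, and 10.63 in 2i Dox against 10.23 in 2i untreated cells. The 1 d array was highest, and the arrays of 6 and 8 d lay below all others. Its slope was -0.13 per day (SE 0.05, adjusted p = 0.143 by limma), with ratios of 2.2 at 1 d, 0.494 at 6 d and 0.462 at 8 d. *Ttk* (MPS1), the kinase gene that starts checkpoint signalling, had ratios of 1.53, 2.01, 1.85 and 2.02 at 1 to 4 d, and 1.06 and 0.928 at 6 and 8 d.

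*Sgo2a*, a shugoshin gene whose protein protects centromeric cohesin, was at 8.09 (log2) in untreated cells and 9.34, 9.65, 9.47 and 9.84 at 1, 2, 3 and 4 d, 9.39 in untreated cells of the second set and 8.89 and 8.80 at 6 and 8 d, and 8.07 in 2i Dox against 8.51 in 2i untreated cells. The 4 early Dox arrays lay far above their untreated array, by 2.38- to 3.37-fold, but near the untreated array of the second set, against which they were 0.962- to 1.36-fold. Its slope in the first set was 0.36 per day (SE 0.09, adjusted p = 0.06 by limma). *Sgo1*, the shugoshin gene of mitotic cells, had ratios of 1.39 to 1.57 at 1 to 4 d and 0.897 and 1.0 at 6 and 8 d.

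*Pttg1* (securin), which holds separase inactive until anaphase, was at 11.37 (log2) in untreated cells and 11.24, 10.96, 11.31 and 11.69 at 1, 2, 3 and 4 d, 10.08 in untreated cells of the second set and 9.82 and 10.52 at 6 and 8 d, and 11.03 in 2i Dox against 11.91 in 2i untreated cells. The second set lay below the first on all its arrays, and Dox arrays fell on both sides of their untreated array in LIF+serum. Its slope was 0.04 per day (SE 0.04, adjusted p = 0.595 by limma). *Espl1*, the separase gene, had a ratio of 0.657 at 1 d and 1.4 at 8 d. *Cdc20*, the activator of the APC/C, and *Ube2c*, its ubiquitin-conjugating enzyme, had ratios of 0.723 and 0.605 at 6 d and 1.07 and 0.866 at 8 d, and between 0.872 and 1.02 at 1 to 4 d.

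The kinetochore held 3 of the 5 genes that rose in the first set. The median ratio of its 10 genes was 1.74, 1.69, 1.92 and 1.6 at 1, 2, 3 and 4 d, 0.913 and 0.888 at 6 and 8 d, and 0.869 in 2i. Against the untreated array of the other set it was 1.11, 1.04, 1.16 and 1.06 at 1, 2, 3 and 4 d and 1.27 and 1.36 at 6 and 8 d, so its high early values turn on the untreated array of the first set. *Cenpe*, the kinetochore kinesin gene, was at 7.24 (log2) in untreated cells and 8.34, 8.92, 8.91 and 9.59 at 1, 2, 3 and 4 d, 8.46 in untreated cells of the second set and 8.83 and 8.32 at 6 and 8 d, and 7.50 in 2i Dox against 8.40 in 2i untreated cells. All 4 early Dox arrays lay above their untreated array, 1 of them below the untreated array of the second set, whereas the 6 and 8 d arrays lay on either side of theirs. *Cenpe* rose by 0.53 per day in the first set (SE 0.09, adjusted p = 0.0253 by limma), with ratios of 5.11 at 4 d, 0.91 at 8 d and 0.536 in 2i. A dimmer probe set of *Cenpe* (mean 6.73) rose there by 0.62 per day (adjusted p = 0.0205 by limma). On it the second untreated array (7.38) was 5.45 times the first (4.94). The 1, 2 and 3 d arrays (6.03, 6.31 and 6.84) lay below that second untreated array, and the 4 d array (7.65) above it.

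*Cenpf*, a large protein of the outer kinetochore, was at 7.25 (log2) in untreated cells and 8.06, 8.39, 8.56 and 9.40 at 1, 2, 3 and 4 d, 8.42 in untreated cells of the second set and 8.86 and 8.33 at 6 and 8 d, and 7.76 in 2i Dox against 8.37 in 2i untreated cells. Its arrays were ordered much as those of *Cenpe* were, with untreated cells of the first set lowest and 4 d highest. *Cenpf* rose by 0.48 per day in the first set (SE 0.08, adjusted p = 0.0253 by limma), and its ratio was 4.43 at 4 d, 0.942 at 8 d and 0.654 in 2i.

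*Ndc80*, the subunit that binds microtubules in the complex named after it, was at 7.38 (log2) in untreated cells and 8.51, 8.90, 9.28 and 9.30 at 1, 2, 3 and 4 d, 8.10 in untreated cells of the second set and 8.69 and 8.69 at 6 and 8 d, and 7.49 in 2i Dox against 8.19 in 2i untreated cells. All 6 Dox arrays in LIF+serum lay above both untreated arrays, and the 2i Dox array lay below its own. *Ndc80* rose by 0.46 per day in the first set (SE 0.08, adjusted p = 0.0278 by limma). Its slope over all 8 arrays was 0.17 (SE 0.06, adjusted p = 0.143 by limma). The other 3 genes of the complex had smaller ratios at 4 d: 1.56 for *Nuf2*, its direct partner, and 1.65 and 0.83 for *Spc25* and *Spc24*, the pair that links the complex to the inner kinetochore. *Spc24* stayed between 0.791 and 1.05 at all 6 times.

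*Cenph*, of the inner kinetochore, was at 8.94 (log2) in untreated cells and 9.28, 9.25, 9.38 and 8.94 at 1, 2, 3 and 4 d, 9.23 in untreated cells of the second set and 8.40 and 7.88 at 6 and 8 d, and 8.74 in 2i Dox against 9.10 in 2i untreated cells. The arrays of 6 and 8 d lay below every other array in LIF+serum. *Cenph* fell within the second set, by 0.16 per day (SE 0.04, adjusted p = 0.029 by limma), to 0.391-fold at 8 d, and its slope over all 8 arrays was -0.12 (SE 0.04, adjusted p = 0.0791 by limma). *Cenpk*, which binds CENPH in the same assembly, had ratios of 1.98 to 2.5 at 1 to 4 d, and 1.09 and 0.925 at 6 and 8 d. *Cenpa*, the histone H3 variant that marks centromeres, ran from 0.822 to 0.968 at 1 to 4 d and was at 0.696 at 6 d. *Knstrn*, a kinetochore protein that supports chromosome alignment, had a ratio of 1.31 at 1 d and 0.803 to 1.13 thereafter.

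Of the motor and chromosome genes, *Top2a* rose by 4 d. *Top2a*, the topoisomerase gene of dividing cells, was at 11.00 (log2) in untreated cells and 11.64, 11.67, 11.98 and 12.25 at 1, 2, 3 and 4 d, 11.60 in untreated cells of the second set and 12.21 and 12.07 at 6 and 8 d, and 11.09 in 2i Dox against 11.56 in 2i untreated cells. All 6 Dox arrays in LIF+serum lay above both untreated arrays. Its slope in the first set was 0.28 per day (SE 0.06, adjusted p = 0.0383 by limma) and over all 8 arrays 0.12 (SE 0.04, adjusted p = 0.105 by limma). The first-set call of *Top2a* was lost with the mean of its probe sets: a dimmer one (mean 7.55) had a slope of 0.08 there (adjusted p = 0.545 by limma) and rose by 0.12 over all 8 arrays (adjusted p = 0.0372 by limma).

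*Kif4*, a chromokinesin gene, was at 8.16 (log2) in untreated cells and 8.62, 8.43, 8.82 and 9.04 at 1, 2, 3 and 4 d, 8.20 in untreated cells of the second set and 8.78 and 8.81 at 6 and 8 d, and 8.26 in 2i Dox against 8.52 in 2i untreated cells. All 6 Dox arrays in LIF+serum lay above both untreated arrays, which were close to each other. Its slope was 0.11 per day (SE 0.03, adjusted p = 0.062 by limma). *Prc1*, which bundles microtubules in the midzone and is carried there by KIF4, was at 9.36 (log2) in untreated cells and 9.70, 9.78, 10.12 and 10.03 at 1, 2, 3 and 4 d, 9.70 in untreated cells of the second set and 9.88 and 10.01 at 6 and 8 d, and 9.54 in 2i Dox against 9.56 in 2i untreated cells. Dox arrays lay above the untreated array of their set at all 6 times, with a slope of 0.07 (SE 0.03, adjusted p = 0.221 by limma).

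The other 4 kinesin genes passed no test. *Kif11* (EG5), which pushes spindle poles apart, had ratios of 1.99, 2.67, 2.42 and 2.73 at 1 to 4 d and 1.62 and 1.25 at 6 and 8 d. Its dimmer probe sets (means 8.6 and 8.48) had ratios of 2.26 and 1.97 at 4 d, 0.902 and 1.26 at 6 d, and 0.665 and 1.03 at 8 d. On them the second untreated array was 0.829 and 1.17 times the first, against 1.76 on the brightest. *Kif20a* and *Kif23*, kinesins of the midzone and of cytokinesis, had ratios of 0.726 and 1.37 at 4 d and 0.539 and 1.15 at 6 d. *Kif2c* (MCAK), which takes microtubules apart at centromeres, ran from 0.86 to 1.03 at 1 to 4 d and was at 0.71 at 6 d.

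**Figure D3:**
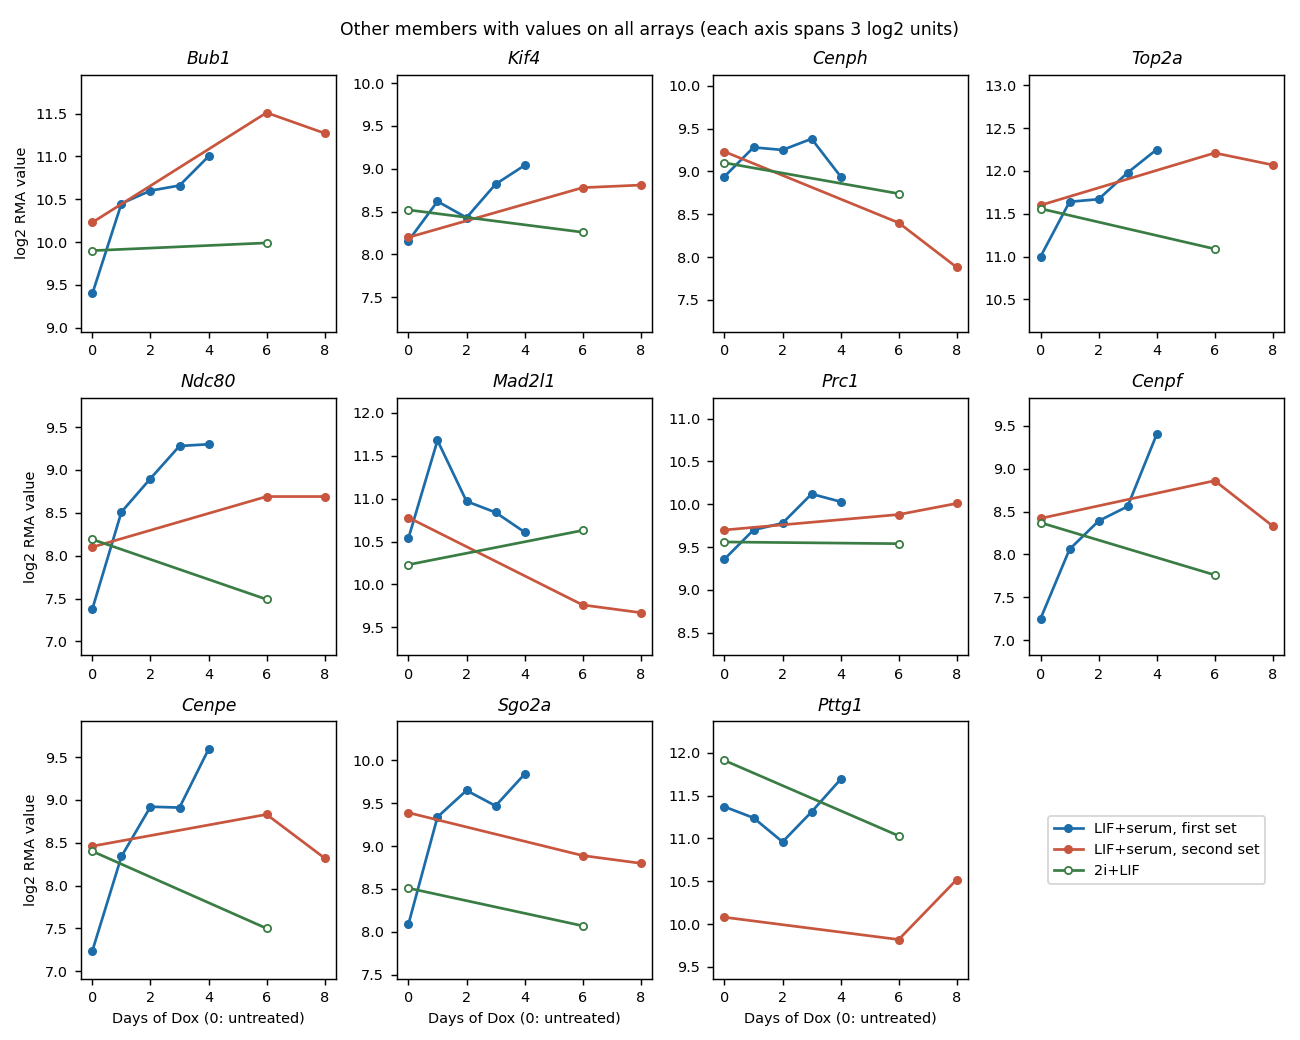
Log2 RMA values of 11 further mitotic genes against days of Dox (0 is untreated), 1 point per array joined within an array set, each axis spanning 3 log2 units. *Bub1*, *Kif4*, *Top2a* and *Ndc80* lie above both untreated arrays at every Dox time in LIF+serum, the untreated array of the first set is the lowest in LIF+serum for *Cenpf*, *Cenpe* and *Sgo2a*, and *Pttg1* lies lower on each array of the second set than on any of the first.

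When a slope was fitted in each array set, 5 of 41 genes rose in the first set (12.2%, against 3.31% of all genes), namely *Aurkc*, *Cenpe*, *Cenpf*, *Ndc80* and *Top2a*, and 0 fell (2.06% of all genes). At an unadjusted p under 0.05, 12 of 41 had a positive slope (29.3%, against 12.3% of all genes) and 0 a negative one (12.3%), the other 7 being *Bub1*, *Cenpk*, *Kif11*, *Kif4*, *Prc1*, *Sgo2a* and *Ttk*. In the second set 0 rose (4.48% of all genes) and 1 fell, *Cenph* (4.24%), and at an unadjusted p under 0.05 2 genes had a positive slope (12.2% of all genes) and 3 a negative one (12.9%). These first-set calls turn on few arrays: without the first untreated array, the 3 d array or the 4 d array, 0 of 41 genes passed the adjusted p by limma. At an unadjusted p under 0.05 the counts were 6, 12 and 13, against 12 with all arrays. The share of all genes that passed in these fits is not given here. The *Cenph* call was lost without the untreated array of the second set, when 0 genes passed, and without the 8 d array, when *Aurkb* alone did.

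Slopes were lower in the second set than in the first for 10 of 41 genes at an unadjusted p under 0.05 (24.4%, against 8.39% of all genes) and higher for 0 (6.43%). Without the first untreated array this count was 5. By limma 0 of 41 differences passed an adjusted p of 0.05, and 1 of 18193 genes did (0.0055%). In simulated data this fit recovered 46 of 100 differences of -0.5 per day, so differences of that size can be missed. The differences with the smallest p were those of *Cenpf* (-0.47 per day, SE 0.09, unadjusted p = 0.000281, adjusted p = 0.115 by limma), *Cenpe* (-0.53, SE 0.10, adjusted p = 0.121), *Aurkc* (-0.49, SE 0.11, adjusted p = 0.146) and *Sgo2a* (-0.44, SE 0.11, adjusted p = 0.166). The sets differ in their untreated array and in their Dox times, and these cannot be told apart.

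**Figure D4:**
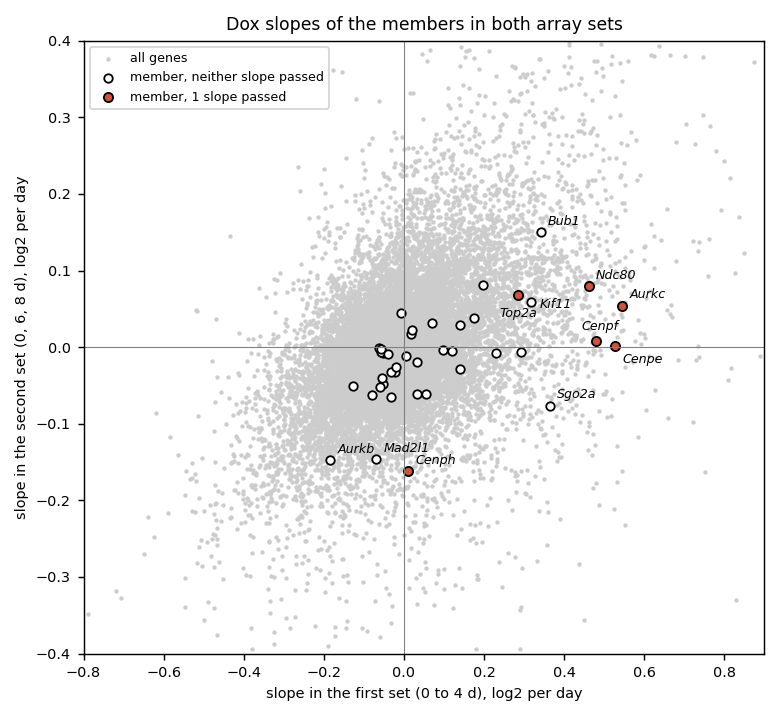
Slope per day of Dox (log2) in the first set, 0 to 4 d, against that in the second set, 0, 6 and 8 d, for 41 mitotic genes (circles) and all genes (grey, of which 114 lie outside the axes). Filled circles passed an adjusted p of 0.05 by limma in 1 set: *Aurkc*, *Cenpe*, *Cenpf*, *Ndc80* and *Top2a* lie far right, and *Cenph* lies lowest.

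In 2i, 4 of 41 genes were at least 1.5-fold lower after 6 d of Dox (9.76%, against 7.47% of all genes) and 0 were higher (6.66%). They were *Cenpe* (0.536), *Pttg1* (0.542), *Ndc80* (0.613) and *Cenpf* (0.654), 3 of them genes of the kinetochore, and 0 reached 2-fold. The highest ratio was that of *Kif2c* (1.35), and the median of the 41 genes was 0.996, against 1.01 over all genes. *Bub1* (1.06) and *Aurkb* (1.29), called in LIF+serum, did not pass 1.5-fold in 2i. Of the 41 genes, 22 (53.7%, against 46.5% of all genes) had a ratio on the other side of 1 in 2i than at 6 d in LIF+serum, *Ndc80* among them with 0.613 in 2i and 1.5 in LIF+serum. The difference between media was not tested, as each medium had 1 Dox array at 6 d.

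**Figure D5:**
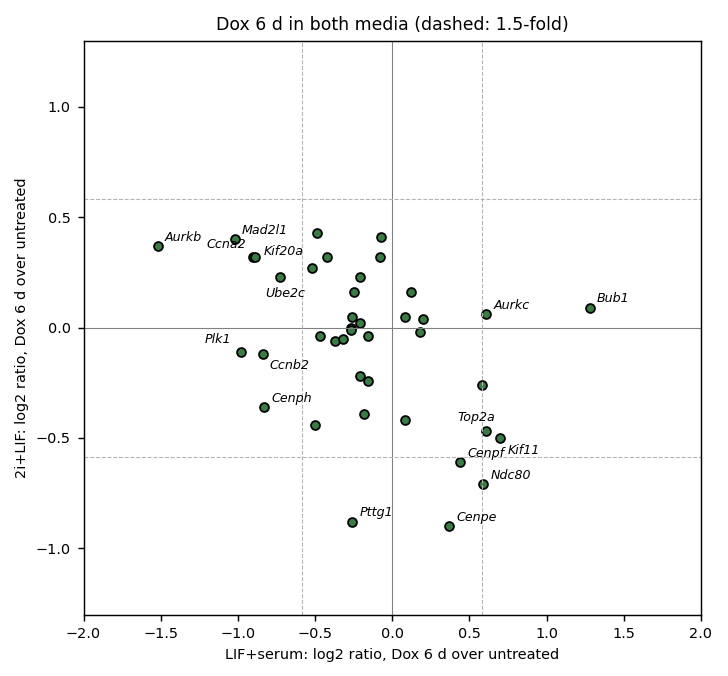
Log2 ratio of Dox 6 d to untreated cells for 41 mitotic genes in LIF+serum (horizontal axis) and in 2i (vertical axis), with 1 pair of arrays in each medium and dashed lines at 1.5-fold. *Aurkb* lies farthest left and *Bub1* farthest right, both between the dashed lines of the vertical axis, and *Cenpe*, *Pttg1*, *Ndc80* and *Cenpf* lie below the lower dashed line.

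Genes with high early ratios shared some traits across the 41 genes, given as descriptions because genes are not independent and share arrays. The ratio at 4 d was higher in genes with a longer genomic span in RefSeq (Spearman's rho 0.59 over 41 genes, 0.24 over 18029 genes), and likewise at 6 d (0.62 and 0.17), but less so at 8 d (0.26 and 0.06). In 2i the order ran the other way (rho = -0.38 over 41 genes, -0.07 over all). *Cenpe* spans 61.0 kb, *Cenpf* 47.5 kb, *Top2a* 31.3 kb and *Ndc80* 30.8 kb, against a median of 18.5 kb over the 41 genes, while *Aurkc* spans 7.75 kb. The ratio at 4 d was also higher in genes with lower untreated values (rho = -0.49 over 41 genes, -0.05 over all genes), a quantity that shares the untreated array of the first set with the ratio.

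Probe sets of 1 gene did not always move together. Of 19 genes with more than 1 probe set at a mean of 6 or higher, 13 had all their first-set slopes on the same side of 0. The brightest probe set of *Tpx2* had a slope of -0.04 per day over the 8 arrays, whereas its 3 dimmer ones rose by 0.14, 0.30 and 0.32 (adjusted p between 0.0125 and 0.0177 by limma), with ratios of 1.53, 6.76 and 7.17 at 6 d. The sources used here do not say which transcripts they read. The brightest probe sets of *Incenp*, *Cdc25c*, *Cdc20* and *Kif2c* are of the same _x design, so their values are uncertain. On them the second untreated array was 0.706, 1.28, 0.688 and 0.901 times the first. Dimmer ones with a mean of 6 or higher gave 1.09 and 0.425 (*Incenp*), 0.952 (*Cdc25c*), 0.481 and 0.612 (*Cdc20*), and 0.521 and 0.0955 (*Kif2c*). The brightest probe sets of *Aurkb*, *Cdca8*, *Bub3*, *Pttg1*, *Nek2*, *Prc1* and *Knstrn* carry the suffix _s, for which binding of other transcripts was not checked.

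Other genes of mitosis were read from 8 lists, also chosen with earlier results of these data known. Of 149 genes measured, 9 rose and 12 fell with days of Dox at an adjusted p under 0.05 by limma (5.75% and 5.33% of all genes did). In the first set 14 rose and 6 fell (3.31% and 2.06% of all genes did). In the list of 32 other kinetochore and centromere genes 1 rose and 2 fell: *Mis12*, whose product joins NDC80 to the inner kinetochore, rose by 0.14 per day, *Ska1*, a microtubule-binding partner of NDC80, fell by 0.26, and *Cenpb*, a binder of centromeric DNA, fell by 0.17. In the first set 2 of this list rose and 2 fell. Among 11 condensin and chromosome structure genes 1 rose and 0 fell over the 8 arrays, *Top2b*, a topoisomerase gene related to *Top2a*, by 0.27 per day, and 4 rose in the first set (*Mki67*, *Ncapg*, *Smc2* and *Smc4*), with a median ratio of 3.39 at 4 d over the list, against 0.936 over all genes. Of 26 other spindle and cytokinesis genes 2 rose and 0 fell: the kinesin gene *Kif14* by 0.36 per day and *Ect2*, which starts cytokinesis, by 0.13. In the first set 5 of these 26 rose (*Aspm*, *Cep55*, *Kif18a*, *Kif20b* and *Nusap1*) and 0 fell. Of 19 checkpoint and APC/C genes 0 rose and 2 fell, the APC/C subunit genes *Cdc26* and *Anapc1*. In the first set 0 of these 19 rose and 1 fell.

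Beside the counts of the next 4 lists stand the shares of all genes, of which 5.75% rose and 5.33% fell with days of Dox. Of 17 genes for FOXM1, MYBL2 and the DREAM complex, which control transcription of mitotic genes, 0 rose and 4 fell: *E2f8* by 0.27 per day, *Tfdp1* by 0.20, *Mybl2* by 0.13, and *E2f7*. Of 21 entry and exit kinase and phosphatase genes 0 rose and 1 fell, *Cks1b*, a subunit of CDK complexes. Of 16 CDK inhibitor and G1 cyclin genes 3 rose and 3 fell: *Ccnd1* fell by 0.33 per day and *Cdk4*, the kinase partner of cyclin D1, by 0.17, and *Ccne2* rose by 0.39. Of 7 meiotic counterparts 2 rose and 0 fell, *Spdya* by 0.39 per day, which activates CDK2 in germ cells, and the cyclin gene *Ccnb3* by 0.18. In the first set, where 3.31% of all genes rose and 2.06% fell, 1 of the 17 genes rose and 1 fell. Of the 21 genes 0 rose and 0 fell there, of the 16 genes 1 rose and 2 fell, and of the 7 genes 1 rose and 0 fell. All these calls use the adjusted p by limma over all probe sets, and no list was tested as a set.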

How the data were processed

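RNA of *Max*-null ESCs was measured on 10 Affymetrix GeneChip mouse genome arrays, grouped by the sample titles. The array sets follow the order of the samples, and the medium of the 8 older arrays was taken from the study's methods. The authors normalized the arrays by RMA, and deposited log2 values. RMA and affy are named in the submitters' processing notes, with versions not given in the sources used here, and no source says whether all 10 were normalized together. RMA makes the distributions of arrays alike and shrinks differences among weak signals. Of 45101 probe sets, 64 controls were left out. Of the rest, 34945 had 1 symbol, 932 had several and 9160 were not listed in the platform annotation or had no symbol there. The number of arrays limits the precision.

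Slopes were fitted to all 45037 probe sets by lmFit and eBayes of limma 3.58.1 in R 4.3.3 (two-sided), with Benjamini-Hochberg adjustment over all of them and a threshold of 0.05. Degrees of freedom were 5 (residual) and 4.81 (prior) with 1 slope, and 4 and 5.7 with a slope in each set. No test was made at a single time or in 2i, where ratios were counted at 1.5-fold. Tables and plots used Python 3.11.15, pandas 2.3.3, numpy 2.4.6, scipy 1.17.1 and matplotlib 3.10.9. Each fit was tested on simulated data. The single slope was recovered for 72 of 100 probe sets at 0.25 per day and for 97 of 100 at 0.5. A difference between sets was recovered for 46 of 100 at -0.5 per day and for 95 of 100 at -1.

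The members and lists were chosen with earlier results of these data known. Values on all arrays are printed for the aurora kinase genes, the 8 members with the smallest p of the Dox slope, the 4 with the smallest p of the difference between sets and the 4 with the largest change in 2i, and from the other lists up to 3 genes with the smallest p of the slope are given with values. *E2f7* and the genes of the condensin and spindle lists that rose in the first set are named beyond that rule, as they make up the counts beside them. Alternatives dropped the array set, used log2(day + 1), kept probe sets with a mean of at least 6, repeated a quantile normalization, averaged a gene's probe sets, set trend and robust in eBayes, left out each array, used the other untreated array, or counted at 2-fold.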

Additional observations from a re-analysis of the deposited data

Results flagged for a closer look

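*Ndc80* was at 0.613 of the untreated value after 6 d of Dox in 2i and at 1.5 times the untreated value after 6 d in LIF+serum. It stands here because its ratio passed 1.5-fold in opposite directions in both media. There was 1 Dox array at 6 d in each medium, and the difference was not tested.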

How the results depend on the processing

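The number of arrays, with 1 per Dox time and 2 untreated in LIF+serum, limits every result here, and the Dox arrays in 2i have no replicate. No paired analysis was possible because each Dox time had 1 array and so shared fewer than 2 replicate numbers with untreated cells. Of 41 mitotic genes, 2 had a Dox slope; 5 did with log2(day + 1), 4 with the mean of a gene's probe sets and 0 to 4 when an array was left out. The Dox slopes of *Ccna2*, *Cenph*, *Kif4*, *Mad2l1*, *Ndc80*, *Top2a* and *Tpx2* passed only under some alternatives. In this text, passing no test refers to the main fits. In the first set 5 passed, 8 among probe sets with a mean of at least 6, where fewer were tested, and 0 to 7 with an array left out. In the second set 1 passed, 3 with the mean of a gene's probe sets and 0 to 3 with an array left out. For the difference between sets the count was 0 under every alternative run, with 10 genes at an unadjusted p under 0.05 by limma, 5 without the first untreated array and 8 to 13 under the others. Of the other mitotic genes 21 passed, 34 with log2(day + 1) and 0 to 32 with an array left out (0 without the second untreated array). The share of all genes that passed is not given here for these alternative fits. A loss of calls therefore cannot be told apart from a change of the cutoff over all probe sets. Counts past 1.5-fold in either direction, against the other untreated array, were 6 at 1 d (19.2% of all genes passed), 8 at 3 d (23.2%), 24 at 6 d (46.0%) and 19 at 8 d (43.7%). With the own untreated array these counts were 13 (15.7%), 15 (25.7%), 13 (28.6%) and 7 (28.2%). At 2-fold they were 6 at 1 d (3.56% of all genes), 8 at 3 d (9.18%), 3 at 6 d (11.3%), 3 at 8 d (12.0%) and 0 in 2i (4.18%; 4 genes at 1.5-fold, 14.1%). Slopes turned sign for 3 genes that passed no test: *Aurka* was at -0.07 without the array set term, -0.01 with the mean of its probe sets and -0.01 without the 8 d array (-0.01 to 0.05 with an array left out); *Pttg1* at -0.07 without the array set term and -0.00 without the 8 d array (-0.00 to 0.12); and *Sgo2a* at -0.00 without the array set term, -0.05 without the first untreated array and -0.01 without the 4 d array (-0.05 to 0.30). The cause was not tested. Of the slopes of the 14 genes printed in full, 169 values under alternatives kept sign and side of the threshold, 9 came to pass it and 10 no longer did, all 10 those of *Aurkb* and *Bub1*.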

Other observations

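Of the mitotic genes, *Aurkc* alone was at least 1.5-fold apart in untreated cells in 2i from both untreated arrays in LIF+serum, at 3.77 times the first and 1.68 times the second. *Espl1* lay at the cutoff, at 0.67 times the first and 0.667 times the second. Other ratios turned on the array chosen: *Aurka* was at 1.05 and 2.31 and *Pttg1* at 1.46 and 3.55 times the first and the second. With 1 untreated array in 2i this was not tested, and the sources used here do not say whether these arrays were normalized together.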
